A study of Homo sapiens with 8 samples.

Results

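The alpha-globin cluster and the NPRL3 gene that lies upstream of it were examined in HUDEP-2 cells by ATAC-seq, which maps open chromatin as the DNA that Tn5 transposase can reach. HUDEP-2 is an established line of human erythroid precursors and depends on the Kit receptor. The members were HBZ, HBM, HBA2, HBA1, HBQ1 and NPRL3. Every peak with its summit at chr16:100000-240000 (hg19) in any of the 4 peak lists was taken, whatever its height. Peaks that shared at least 1 bp were joined across lists, which gave 22 regions of 43654 in the genome. All 4 libraries came from cells with a control guide RNA (sgControl). Those cells were deprived of growth factors for 5 h, then received either SCF, the ligand of Kit, at 50 ng/ml for 1 h or PBS as the vehicle. There were 2 libraries per treatment, made from 50000 cells each. The question was which sites of the cluster open or close within 1 h of Kit activation. Libraries of cells with a guide against EGR1 were not analysed here.

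The alpha-globin genes encode the alpha-like chains of hemoglobin and lie in the order in which they are used in development. HBZ encodes the embryonic zeta chain, HBA2 and HBA1 encode the same alpha chain of fetal and adult hemoglobin, and HBM and HBQ1 encode the minor mu and theta globins. Their main enhancers lie upstream, mostly in introns of NPRL3, a housekeeping gene that encodes a subunit of the GATOR1 complex, an inhibitor of mTORC1. These enhancers are named by their distance from the HBZ start in kb: HS-48, HS-40, HS-33 and HS-10. HS-40 is the strongest of them, and is bound in erythroid cells by GATA1, TAL1 and NF-E2. In GRCh37, NPRL3 lies at chr16:134270-188676 on the minus strand. The globin genes lie on the plus strand, with the canonical HBZ start at 202643, the HBM start at 215977, HBA2 at chr16:222875-223709, HBA1 at chr16:226679-227521 and HBQ1 at chr16:230458-231178. The regions are named below by the distance of their strongest summit from the canonical HBZ start in kb, with negative distances toward NPRL3.

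The reference sequence of 3 enhancer summits is shown because the words in them differ. Each runs 100 bases to either side of the strongest summit, plus strand, GRCh37 (the build that hg19 names). Capitals mark GATAA, the core bound by GATA factors, and CCACCC, bound by KLF factors, on either strand. HS-48 is chr16:155155-155355 in intron 7 of NPRL3, and HS-33 is chr16:169955-170155 in intron 3. HS-10 is chr16:193187-193387, upstream of NPRL3 and of the canonical HBZ start, and inside the longest annotated HBZ model, which begins at 192727.
HS-48: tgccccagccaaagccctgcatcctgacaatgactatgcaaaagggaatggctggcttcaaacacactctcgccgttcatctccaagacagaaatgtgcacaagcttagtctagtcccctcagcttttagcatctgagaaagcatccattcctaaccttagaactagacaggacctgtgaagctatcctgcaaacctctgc
HS-33: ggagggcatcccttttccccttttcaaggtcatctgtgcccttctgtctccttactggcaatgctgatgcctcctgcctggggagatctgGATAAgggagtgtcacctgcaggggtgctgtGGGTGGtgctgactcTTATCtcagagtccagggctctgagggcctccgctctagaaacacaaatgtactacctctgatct
HS-10: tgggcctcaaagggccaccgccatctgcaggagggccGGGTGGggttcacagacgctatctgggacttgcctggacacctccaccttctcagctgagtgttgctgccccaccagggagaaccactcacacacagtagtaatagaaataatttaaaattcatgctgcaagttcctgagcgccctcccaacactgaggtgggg

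HS-33 held 2 copies of GATAA in this span and HS-48 held neither word. The HS-48 span is centred on the PBS summit, and the summits of both SCF libraries, at 154973 and 155024, lie outside it. Within 250 bp of the same centre HS-48 held 1 GATAA and 1 composite match with a gap of 8, described next. GATAA was present in 3 of 22 regions, HS-33 among them, against 29.7% of all 43573 regions searched. CCACCC was present in 10 of 22, against 24.58% of all. The EGR word GCGTGGG, on both strands, was found in 1 of 22, the HBM region, with 2 copies, and in 3.80% of all. The composite of CTG, 8 unspecified bases and GATA, bound by TAL1 with GATA1, was found in HS-33 and in 3.54% of all regions. The form with a gap of 7 was found in 0 of 22 and in 2.21% of all. GATAA can lie inside a composite match. Within 250 bp of the summit, GATAA was found in 8 regions and CCACCC in 14, against 48.2% and 48.7% of all regions.

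The duplicated alpha genes limit what short reads can place. HBA2 and HBA1 were 97.5% identical over their aligned bases. Reads were paired and 75 bases long. Of the 75-base stretches of the reference that touch the gene body, the share that occurred elsewhere in the genome was 58.4% for HBA2, 57.9% for HBA1 and 49.2% for HBZ, which has a copy in the pseudogene HBZP1. It was 0% for HBM, HBQ1, HS-48, HS-40, HS-33 and HS-10, and 5.85% for the whole window. These shares treat each read alone, and a mate in sequence that occurs once may place some pairs. Taken alone, a read from a repeated stretch has no single place and may be left out. A missing peak at HBA2 or HBA1 thus does not show closed chromatin.

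The lists held 29269 to 33616 peaks. Depth was estimated as the lowest local background of a list divided by the width of its shortest peak. It ranged from 0.843 to 1.42 relative to PBS replicate 1, with PBS replicate 2 the deepest. Read totals are unknown. As a check of the cell type, promoters of 9 of 10 erythroid markers were called in all 4 libraries and ALAS2, the erythroid heme enzyme, in 1. Of 10 markers of other cell types, COL1A1 was called in all 4 libraries, PAX5 in 1, and the other 8 in none. Promoters of 14 of 14 genes for globin regulators, among them GATA1, KLF1, NFE2 and AHSP, were called in all 4. The share of all coding promoters called in all 4 libraries is not given, so these counts have no background beside them.

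Peaks lay along the whole window in both treatments. PBS replicate 1 had 18 peaks in it, PBS replicate 2 had 22, SCF replicate 1 had 18 and SCF replicate 2 had 20. The means were 20 ± 2.83 (SD, n = 2) with PBS and 19 ± 1.41 (SD, n = 2) with SCF, and the libraries overlapped (two-sided exact permutation p = 1.0, n = 2 per group). Covered sequence was 12886 and 14139 bp with PBS and 11894 and 12241 bp with SCF. Both SCF libraries were lower, with a mean difference of -1445 bp, and the two-sided exact permutation p was 0.333, the smallest that 2 against 2 libraries can give.

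**Figure D1:**
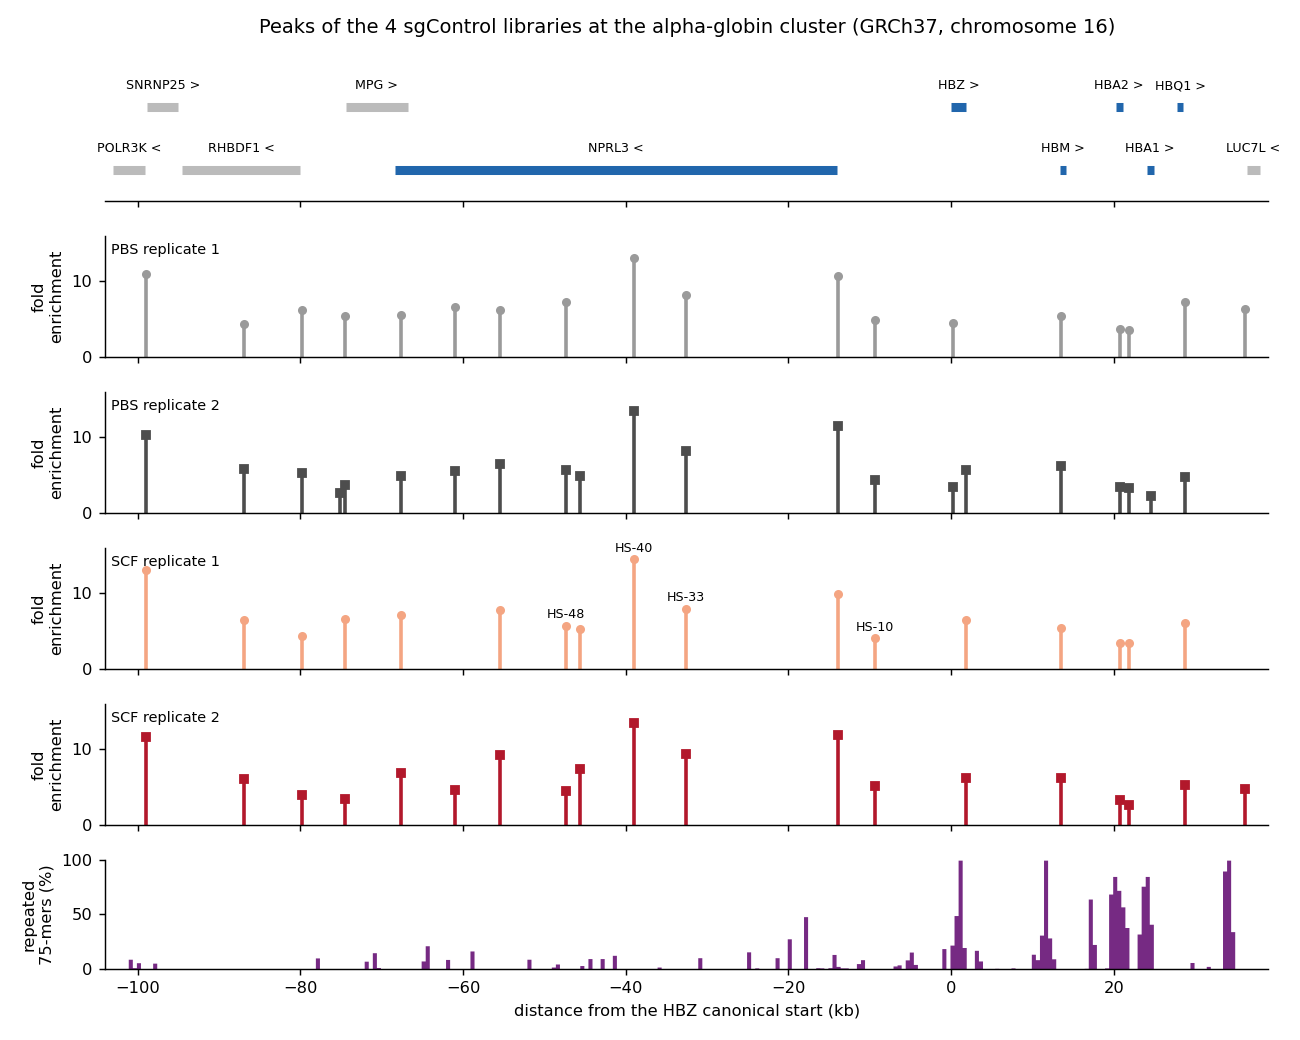
Top, genes of the window, members in blue, with > or < for the direction of transcription. Middle, fold enrichment of the peak of each region in each of the 4 libraries, and bottom, percent of 75-base stretches in each bin of 500 bases that occur elsewhere in the genome, all against distance from the HBZ start in kb. HS-40 is the highest point in each library (13.2, 13.6, 14.6 and 13.5), and the repeated sequence lies over HBZ, HBZP1, HBA2 and HBA1.

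Most regions of the cluster were called with and without SCF. In all, 15 of 22 regions were called in all 4 libraries (68.2%), against 51.3% of all regions. They included all 4 named enhancers, the NPRL3 promoter, and regions at HBM, HBA2 and HBQ1. Of the 22 regions, 1 was called with PBS alone, that is, in the 2 PBS lists and in no SCF list, against 2.37% of all regions, and 0 with SCF alone, against 1.65% of all. A call in 1 library was made in 2 regions, against 26.5% of all, in 2 libraries in 2 regions, against 12%, and in 3 libraries in 3 regions, against 10.2%.

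The region called with PBS alone lay at the HBZ start. It is the +0.2 kb region, chr16:202237-202867, whose strongest summit, from PBS replicate 1, was at 202820 in the 5′ UTR exon of HBZ. The PBS replicate 2 summit, at 202516, lay before the canonical HBZ start at 202643. The summit pileup of the region, the count of reads or fragments over the peak top, was 13 in PBS replicate 1 and 12 in PBS replicate 2. These were weak peaks, with q-values of 1.34e-05 and 0.00123. Their ranks by fold enrichment were 18.1 and 5.29, where the rank is the percentile within a list and 100 is the highest. Both PBS libraries were deeper than both SCF libraries, so a lost call and lower depth cannot be told apart here. Of the 75-base stretches within 100 bases of the strongest summit, 35.6% occurred elsewhere in the genome, and their part was not tested. At the other end of HBZ, the +1.8 kb region was called in PBS replicate 2 and in both SCF libraries, with ranks of 39.01, 41.7 and 44.1.

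Calls in 3 libraries were also made in NPRL3. The -61.0 kb region, in intron 11, was called in both PBS libraries at ranks of 44.4 and 36.7 and in SCF replicate 2 at 21.5. The -45.6 kb region, in intron 7 next to HS-48, was called in PBS replicate 2 at a rank of 28.98 and in the SCF libraries at 26.97 and 55.3. Neither set of calls followed the treatment. The -75.2 kb region upstream of MPG, a DNA glycosylase gene, was called in PBS replicate 2 alone, at a rank of 0.701. The +36.1 kb region near the end of LUC7L was called in PBS replicate 1 and SCF replicate 2, at 41.1 and 25.8.

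HS-40 had the highest fold enrichment of the cluster in each library. By pileup the -98.9 kb region, outside the member genes, was as high or higher in each library, at 89 and 109 with PBS and 102 and 88 with SCF, and HBQ1 was higher in PBS replicate 1. The HS-40 fold enrichment, the summit pileup over the local background with 1 added to each, was 13.2 and 13.6 with PBS and 14.6 and 13.5 with SCF. Its rank was 87.9 and 90.8 with PBS and 92.3 and 91.6 with SCF. Both SCF ranks were above both PBS ranks, by 2.61 points on average. The fitted SCF minus PBS difference in log2 fold enrichment was 0.07 (SE 0.12, 95% interval -0.17 to 0.32, limma, Benjamini-Hochberg adjusted p = 0.956).

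The pileup at HS-40 gave a larger difference than the fold enrichment did. It was 75 and 108 with PBS and 99 and 88 with SCF. The exact Poisson 95% intervals were 59.0 to 94.0, 88.6 to 130.4, 80.5 to 120.5 and 70.6 to 108.4, and they cover counting error only. Divided by the genome-wide background of its library, the pileup was 71.7 and 72.0 with PBS and 104.9 and 99.4 with SCF. The local background on the same scale was 4.56 and 4.69 with PBS and 6.22 and 6.29 with SCF. Thus both the summit pileup and the recovered local background were higher in both SCF libraries, and their ratio differed less. The window behind the local background is not given, so it may not be separate from the peak. On this scale 36.1% of all regions had a higher pileup in both SCF libraries, and 36.3% had a higher local background. On the pileup scale, centred on the regions called in all 4 libraries, the limma difference was 0.35 (SE 0.16, Benjamini-Hochberg adjusted p = 0.673).

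HS-48 ranked lower in both SCF lists. Its rank was 50.5 and 39.3 with PBS and 33.01 and 20.5 with SCF, so both SCF libraries were below both PBS libraries. With a −log10 q of at least 5 its ranks also separated, but with lists of equal length the treatments overlapped in rank. Its fold enrichment was 7.23 and 5.67 with PBS and 5.71 and 4.55 with SCF, and these overlapped. The strongest summit lay at 155255 and 155258 with PBS and at 154973 and 155024 with SCF, so the peak top lay elsewhere with SCF. Its pileup over the genome-wide background was 24.9 and 19.3 with PBS and 23.3 and 18.1 with SCF, which also overlapped. The log2 difference was -0.32 (SE 0.24, 95% interval -0.83 to 0.18, limma, Benjamini-Hochberg adjusted p = 0.853).

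HS-33 and HS-10 did not separate by treatment in rank. HS-33 had ranks of 58.9 and 62.7 with PBS and 55.4 and 70.1 with SCF, with a log2 difference of 0.07 (SE 0.19, limma, Benjamini-Hochberg adjusted p = 0.970). HS-10, the lowest of the 4 enhancers on average, had ranks of 21.8 and 18.0 with PBS and 8.35 and 29.4 with SCF, with a log2 difference near zero (95% interval -0.48 to 0.47). Both were narrower in both SCF libraries. HS-33 spanned 755 and 893 bp with PBS and 550 and 658 bp with SCF, and HS-10 spanned 626 and 590 bp with PBS and 452 and 402 bp with SCF.

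**Figure D2:**
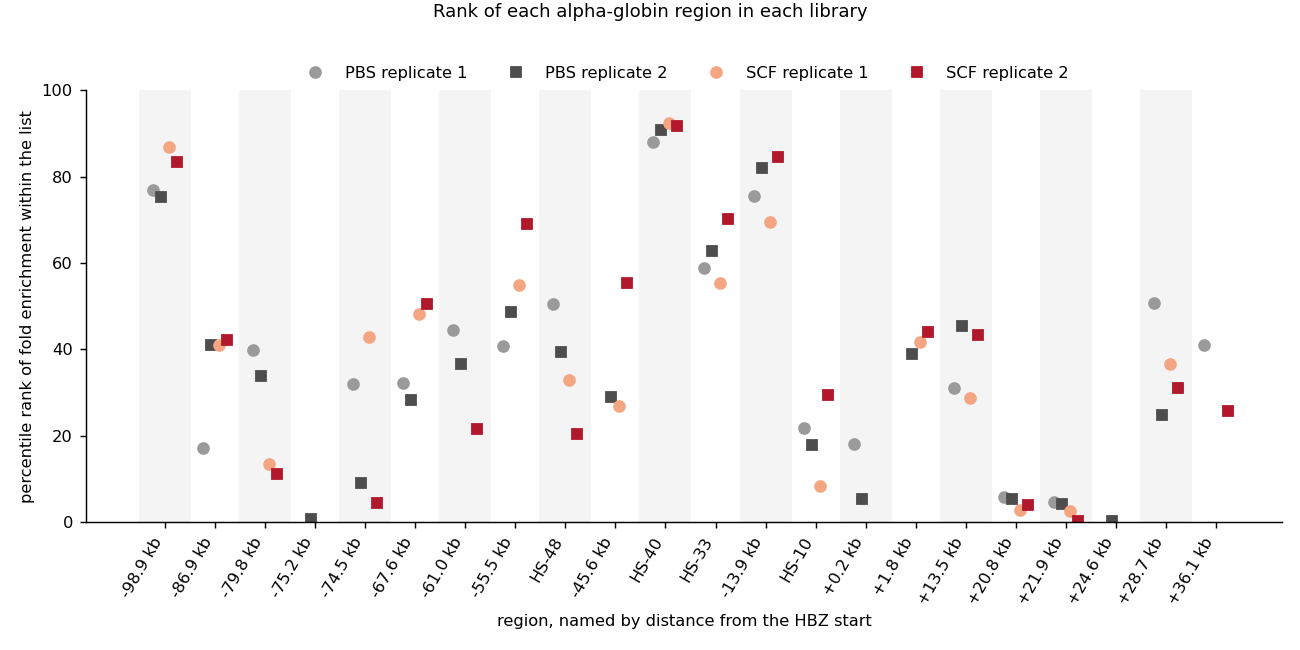
Percentile rank of fold enrichment within each list (y axis, 100 is the highest) for the 22 regions in order along the chromosome, with 1 point per library and no point where a region was not called. HS-40 lies at 87.9 to 92.3 and the HBA2 region at 2.92 to 5.95 in the 4 libraries.

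The rest of NPRL3 held a promoter and 2 further regions called in all 4 libraries. The promoter, the -13.9 kb region, had ranks of 75.6 and 81.9 with PBS and 69.4 and 84.6 with SCF, which overlapped, and a log2 difference of -0.04. The -55.5 kb region, in intron 9, had ranks of 40.7 and 48.6 with PBS and 54.8 and 69.1 with SCF. The -67.6 kb region, in the overlap of NPRL3 with intron 3 of MPG, had ranks of 32.3 and 28.2 with PBS and 48.3 and 50.5 with SCF. Both of these were higher in both SCF libraries, with log2 differences of 0.42 (SE 0.21, limma, Benjamini-Hochberg adjusted p = 0.750) and 0.44 (SE 0.22, limma, Benjamini-Hochberg adjusted p = 0.750).

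At the globin genes, the regions at HBA2 stood out for a low fold enrichment over a high local background. The +20.8 kb region, chr16:223284-223798, had its strongest summit in intron 2 of HBA2 and a pileup of 42 and 55 with PBS and 34 and 34 with SCF. By pileup these peaks ranked at 68.0, 70.5, 61.9 and 66.3 in the 4 lists, but by fold enrichment they ranked at 5.95, 5.40, 2.92 and 3.96. The local background there was 10.1, 10.1, 9.62 and 10.7 times the genome-wide background. The median over all regions called in all 4 libraries was 3.09.

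The +21.9 kb region, between HBA2 and HBA1, had the same form. Its ranks by fold enrichment were 4.71 and 4.21 with PBS and 2.62 and 0.375 with SCF, and its ranks by pileup were 69.3 and 71.8 with PBS and 66.1 and 61.5 with SCF. Both regions had lower ranks in both SCF libraries on either scale, but with lists of equal length neither region separated by rank of fold enrichment. With a −log10 q of at least 5 the +20.8 kb region separated, and the +21.9 kb region was no longer called in SCF replicate 2. Pileup over the genome-wide background overlapped between treatments in both, at 40.2 and 36.7 with PBS and 36.0 and 38.4 with SCF at +20.8 kb, and at 42.1 and 38.7 with PBS and 41.3 and 32.8 with SCF at +21.9 kb. Their log2 differences were -0.07 (SE 0.18) and -0.19 (SE 0.18), with Benjamini-Hochberg adjusted p-values of 0.968 and 0.905 by limma.

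HBA1 had a call in PBS replicate 2 alone, the deepest library. This +24.6 kb region, chr16:227157-227517, had its summit in intron 2 of HBA1, with a pileup of 56. The local background was 16.6 times the genome-wide background, and the fold enrichment of 2.20 ranked at 0.187. The HBA1 summit lay 573 bases after the HBA1 start, and the strongest HBA2 summit, from PBS replicate 1, lay 568 bases after the HBA2 start. HBA2 summits lay at 223443 and 223517 with PBS and at 223431 and 223702 with SCF, so this distance differed between libraries. In PBS replicate 2, the library with both calls, the summits lay at 223517 and 227252. The HBA1 peak began 29 bases before the end of a run of repeated sequence at 227186, and the HBA2 peaks began between 98 bases before and 3 bases after the end of the equivalent run at 223382. Both sets of peaks thus began at the edge of sequence in which a read has a single place, and the part of this in their shape was not tested.

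HBM and HBQ1 lie in sequence that occurs once. The HBM region, at +13.5 kb with its summit in intron 1, had ranks of 31.1 and 45.3 with PBS and 28.7 and 43.4 with SCF, and it was the region with both copies of the EGR word. Its log2 difference was 0.01 (SE 0.23). The HBQ1 region, at +28.7 kb, had its summit past the end of the gene at 231178 in each library, the strongest 911 bases after the HBQ1 start. It had pileups of 89 and 84 with PBS and 74 and 62 with SCF. Its ranks were 50.7 and 24.7 with PBS and 36.7 and 31.1 with SCF. Treatments overlapped in rank at both genes. The local background at HBQ1 was 10.9 to 12.4 times the genome-wide background.

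**Figure D3:**
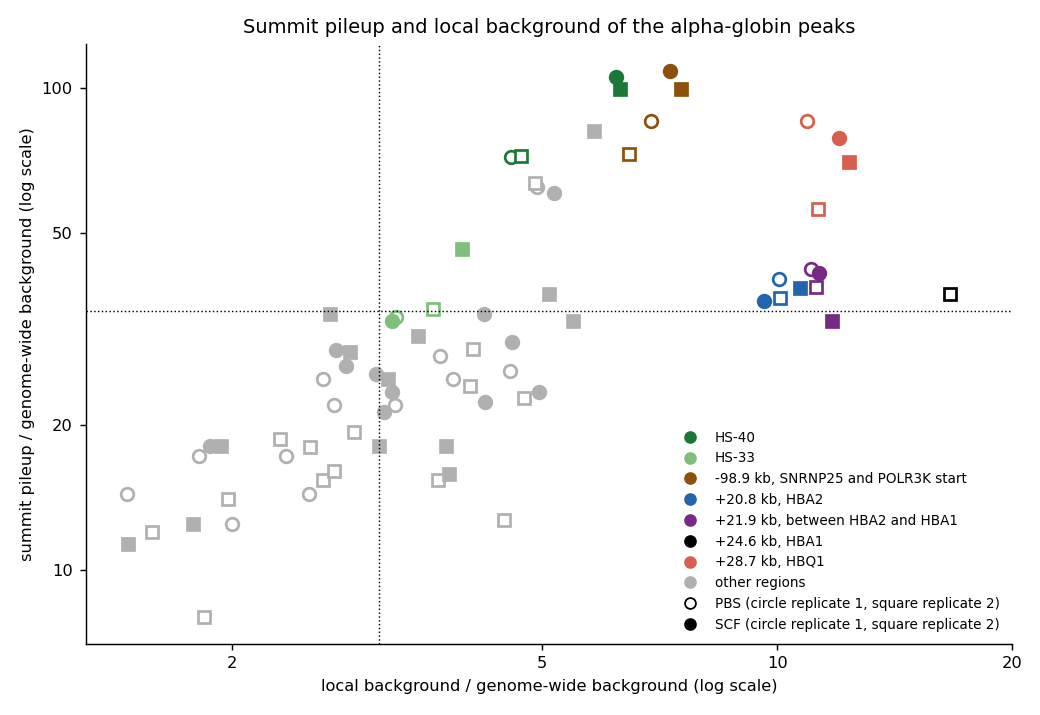
Summit pileup (y axis) against local background (x axis), each divided by the genome-wide background of the library, on log scales, with 1 point per region and library. Dotted lines mark the medians over all regions called in all 4 libraries (3.09 and 34.5), and the HBA2, HBA1 and HBQ1 points lie between 9.62 and 16.6 on the x axis.

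Outside the member genes, 4 regions were called in all 4 libraries, and they are named here after their values were seen. The -98.9 kb region, at the divergent start of SNRNP25 and POLR3K, had ranks of 76.9 and 75.2 with PBS and 86.9 and 83.4 with SCF. The -86.9 kb region, in intron 1 of RHBDF1, an inactive rhomboid gene, had ranks of 17.1 and 41.0 with PBS and 41.0 and 42.3 with SCF, so PBS replicate 2 was nearly level with SCF replicate 1. The -79.8 kb region, at the RHBDF1 promoter, had ranks of 39.97 and 33.9 with PBS and 13.5 and 11.2 with SCF. It had the largest fall in log2 fold enrichment of the 15 regions, at -0.45 (SE 0.22, limma, Benjamini-Hochberg adjusted p = 0.750). The -74.5 kb region, at the MPG promoter, varied more between replicates than between treatments, with ranks of 32.0 and 9.07 with PBS and 42.9 and 4.46 with SCF.

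Over the 15 regions, ranks separated the treatments in both directions. Both SCF ranks were above both PBS ranks in 5 of 15, namely the -98.9, -86.9, -67.6 and -55.5 kb regions and HS-40, against 16% of the 22398 regions called in all 4 libraries. They were below in 4 of 15, namely the -79.8 kb region, HS-48, and the +20.8 and +21.9 kb regions, against 19.3%. Ranks by pileup separated the same 5 and the same 4 regions, against 13.6% and 20.1% of all. When the lists were cut to equal length, 1 of 15 was lower in both SCF libraries, the -79.8 kb region, and 5 were higher. The share over all regions is not given for lists of that length.

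Width separated the treatments mostly in one direction, as it did in the whole genome. Both SCF widths were below both PBS widths in 6 of 15 regions, against 27.2% of all regions, and above in 1, the -74.5 kb region, against 8.79%. The 6 were the -79.8 kb region, HS-33, HS-10, HBM and the +20.8 and +21.9 kb regions. HBM spanned 1336 and 1084 bp with PBS and 1069 and 935 bp with SCF, so PBS replicate 2 and SCF replicate 1 were nearly level. The HBM width was that of 1 peak in PBS replicate 1 and the sum of 2 peaks in each other library. HBA2 peaks spanned 472 and 489 bp with PBS and 381 and 407 bp with SCF. The +21.9 kb peaks spanned 1076 and 1031 bp with PBS and 930 and 690 bp with SCF. Both SCF libraries were the shallower ones, so treatment and depth cannot be told apart for width. Without PBS replicate 1 the SCF widths were lower in 12 regions, against 53.2% of all regions.

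**Figure D4:**
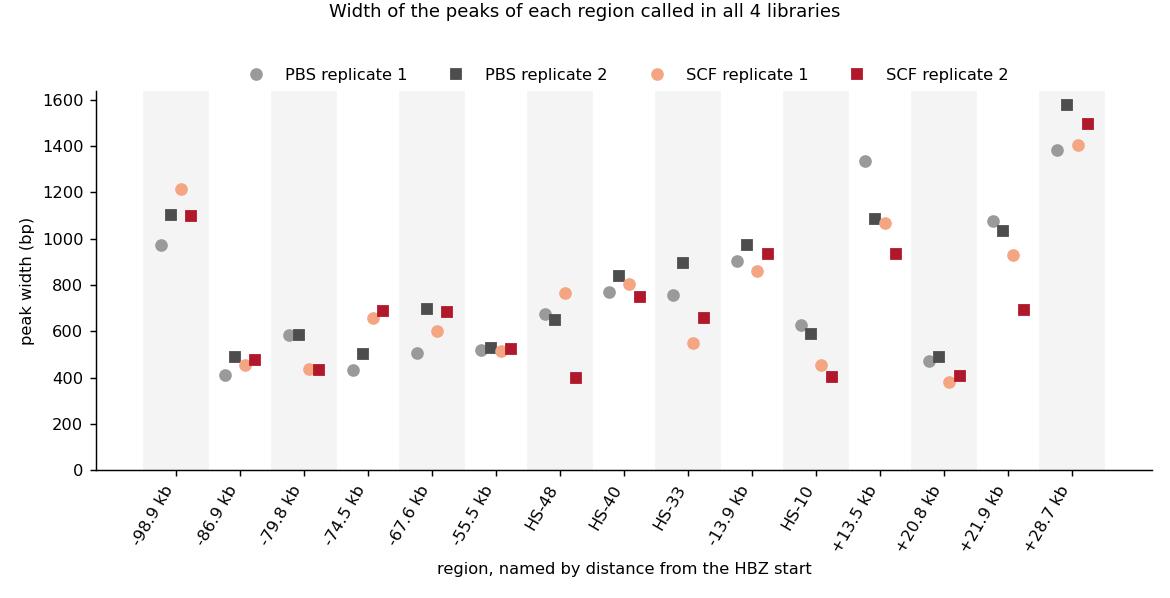
Width in bp (y axis, from 0) of the peaks of each of the 15 regions called in all 4 libraries, summed where a library had 2 peaks in a region, with 1 point per library. HS-33, HS-10, HBM and the HBA2 regions are narrower in both SCF libraries, while HS-40 overlaps (746 to 840 bp).

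The local background was higher with SCF at most regions of the cluster. Relative to the genome-wide background it was higher in both SCF libraries in 11 of 15 regions, against 36.3% of all, and lower in 0, against 7.24%. The 11 included HS-48, HS-40, HS-10, the NPRL3 promoter, HBM and HBQ1. On the same scale the summit pileup was higher in both SCF libraries in 6 of 15 regions, against 36.1%, and lower in 1, against 6.71%. Over all regions the median local background was 2.95 and 2.97 with PBS and 3.11 and 3.32 with SCF, so the whole genome shifted in this direction too. Neighbouring regions share background sequence and are not independent, and no test was made of these counts.

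No region of the cluster passed the test of SCF against PBS. By limma with Benjamini-Hochberg adjustment, 0 of 15 regions were called, and 0 had an unadjusted p under 0.05. In the whole genome 0% of 22398 regions were called in either direction, and 787 higher (3.51%) and 748 lower (3.34%) had an unadjusted p under 0.05. With percentile ranks in the same fit 1 of 15 regions had an unadjusted p under 0.05, and with pileups 2 did, HS-40 and the -67.6 kb region, with none called. With a −log10 q of at least 5, 2 of the 12 regions that remained did, the -67.6 and -55.5 kb regions, with none called. The log2 difference was above 0 in 8 of 15 regions, with a median of 0.014 against -0.0011 over all regions. The 95% intervals of the 15 differences reached from -0.92 to 0.92. These intervals are not detection limits, because calls were made after adjustment over 22398 regions. The lowest adjusted p in the genome was 0.437 (limma, Benjamini-Hochberg). With 2 libraries a group, changes inside or beyond the intervals may have gone uncalled. The p-values measure the spread between these libraries, which the methods call biological duplicates. For SCF against PBS in control cells the study used MAnorm with a fold-change cutoff, and it reports sites that gained and sites that lost accessibility. That is another measure on another set of sites, so the 0 calls here do not show that the genome did not respond.

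**Figure D5:**
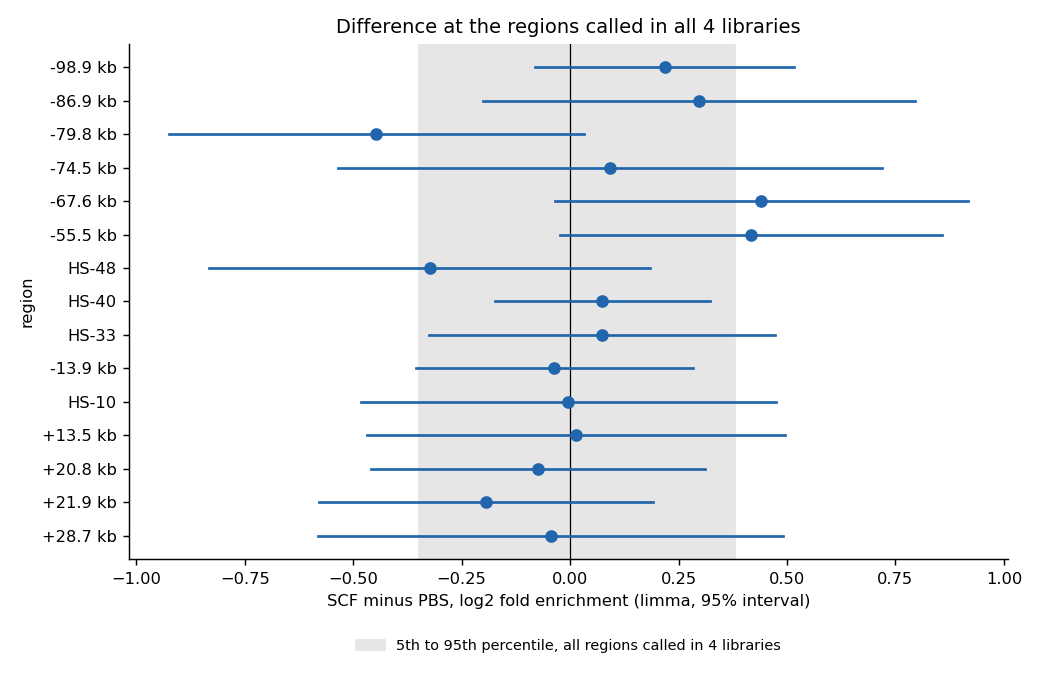
SCF minus PBS difference in log2 fold enrichment (x axis) with its 95% interval by limma for the 15 regions called in all 4 libraries. The grey band is the 5th to 95th percentile of the difference over all 22398 regions (-0.35 to 0.38), and each interval includes 0.

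The beta-globin cluster, with its locus control region at chr11:5246694-5321175, was set beside the alpha-globin cluster without a test. It held 12 regions, and 8 had a call in each library. The median of the mean ranks by fold enrichment was 35.8 in the alpha-globin cluster, 44.3 in the beta-globin cluster and 63.3 over all regions. By pileup these medians were 59.7, 75.7 and 63.6. The median local background was 4.39 times the genome-wide background in the alpha-globin cluster and 8.54 times in the beta-globin cluster. In both clusters the rank by fold enrichment was lower than the rank by pileup.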

How the data were processed

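ATAC-seq peak lists of 4 libraries of sgControl HUDEP-2 cells were analysed, 2 per treatment, grouped by the labels. Peak names inside the PBS lists carry replicate numbers 2 and 3 where the titles give 1 and 2, and the library names of the PBS samples contain SCF (written SCR-SCF, against SCR+SCF for the SCF samples). The titles and the treatment label were followed, and the direction of each difference rests on them. Per the study's methods, paired reads of 75 bases went through the ENCODE ATAC-seq pipeline, and the submitters' processing notes name bcl2fastq, Bowtie2 and SAMtools. The methods and notes name hg38, whereas the series description and the header of each list name hg19, and all peaks ended inside GRCh37 (0 of 24 chromosomes exceeded). Caller settings are not given in the sources used here. Peaks were called for each library separately.

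The lists hold, as deposited, a fold enrichment (the ratio of summit pileup to local background), the −log10 p-value, the −log10 q-value and a whole-number score that is 10 times the −log10 q and was not used. The largest q-value in the deposited lists was 0.0497. From the authors' values, whole-number pileups were recovered under a Poisson model within a relative error of 0.0001 in 100% of peaks with a −log10 p under 300. Whether a pileup counts reads or fragments is not given in the sources used here. The lowest local background in a list was taken as its genome-wide background.

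The peak with the highest fold enrichment stood for a region in a library. Log2 fold enrichment was centred on the median over the 22398 regions called in all 4 libraries and tested with limma 3.58.1 (R 4.3.3, trend on, no pseudocount) with Benjamini-Hochberg adjustment over all of them at 0.05. The fit was run on simulated data in which 200 regions changed by more than any region did here. That run does not measure the power to call changes of the size seen here. Peak numbers and covered bases were compared by exact permutation (scipy 1.17.1). Genes came from GENCODE 44 lifted to GRCh37, and a promoter was within 1000 bp of a coding start. Alternatives were quantile normalisation, no centring, ranks, pileups, a replicate block, each library left out, a −log10 q of at least 5, lists of equal length and joining summits within 250 bp.

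Regions named in full had to lie in or within 1 kb of a member, or between NPRL3 and HBQ1, or be missing from a list. Enhancer names went to the summit nearest to the named distance, within 2 kb. The members, gene lists and tests were chosen with earlier results of these data known. The sequence of some sites is not reported here.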

Additional observations from a re-analysis of the deposited data

How the results depend on the processing

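No region of the cluster was called by limma with all libraries or in any of the 11 alternatives. Leaving out 1 library gave 2 to 14 calls in the genome (14 without PBS replicate 1, 9 without PBS replicate 2, 2 without SCF replicate 1, 4 without SCF replicate 2), against 0 with all libraries and in the other 7 alternatives. The lone library is assumed there to vary like the other group. The replicate numbers share only a number (r = 0.01 over 22398 regions between replicate differences), and the fit with a replicate block called 0 regions.

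With a −log10 q of at least 5, 12 regions and not 15 were called in all 4 libraries. Ranks were lower in both SCF libraries in 2 regions against 4, and these 2 were HS-48 and the +20.8 kb region. The -79.8 and +21.9 kb regions were no longer called in SCF replicate 2 and could not be compared. Widths separated in 4 regions against 7, and widths were higher in 0 against 1. With lists of equal length the ranks were lower in 1 region, and the lists gave a mean peak difference of 0.0 against -1.0. Shares over all regions are not given for the filter on q or for lists of equal length. Leaving out 1 library gave a peak difference of -3.0 to 1.0 and a median log2 difference of -0.0051 to 0.096. Ranks then separated in 5 to 8 regions higher and 5 to 8 lower (10 to 14 in all). Of all 22398 regions, 25.9% to 37.9% were higher and 30.2% to 42.5% lower. Widths separated in 1 to 5 regions higher and 6 to 12 lower (9 to 13 in all). Of all regions, 16.5% to 28.1% were higher and 38.1% to 53.2% lower. Within 250 bp, GATAA was in 8 regions against 3. With 50-base stretches, 11.02% of the window was repeated.

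Small log2 differences changed sign. The range over the fits that left out 1 library was -0.081 to 0.11 at HBM, -0.17 to 0.096 at the NPRL3 promoter, -0.17 to 0.17 at HS-10, -0.36 to 0.27 at HBQ1, -0.38 to 0.57 at the -74.5 kb region (0.09 with all libraries) and -0.046 to 0.19 at HS-33. HBM also gave -0.014 with quantile normalisation and -2.18 points with ranks. With pileups the NPRL3 promoter gave 0.0028 and HS-10 gave 0.035, and HS-10 gave 0.0020 after the filter on q. HS-48, HS-40, HBA2, the +21.9 kb region and the -55.5 and -67.6 kb regions kept their sign in every alternative that could be run. So did the -98.9, -86.9 and -79.8 kb regions, which lie outside the member genes. The causes were not tested. Peak lists hold no reads below the threshold, so weak sites cannot be compared.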
